A study of Mus musculus with 10 samples.

Results

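The genes described are 36 cell cycle and proliferation genes, a list of cyclins, cyclin-dependent kinases (CDKs), their inhibitors, the Rb/E2F switch, replication factors and mitotic regulators. They were chosen by symbol and matched by Ensembl ID to the deposited table of 16154 mouse genes, and all 36 were found in it. The cells were alveolar type 2 (AT2) cells, the surfactant-making cells of the alveolus, sorted from the lungs of C57BL/6 mice aged 8 to 10 weeks, and polyA RNA was sequenced. The labels put 5 libraries in a wild-type group and 5 in a knockout group with the genotype HOIL-1L -/-. HOIL-1L, encoded by Rbck1, is a subunit of the linear ubiquitin chain assembly complex. The labels give no treatment that differed between the groups, and every sample title carries a letter N that they do not explain. The series' design text gives the knockout mice as carrying a floxed HOIL-1L allele and Cre driven by SPC, the promoter of surfactant protein C, so the deletion is described as restricted to cells that have used that promoter. The mouse number differs from title to title and was taken to mean separate mice, and p-values measure the spread between these libraries.

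The cell cycle is driven by cyclins that bind and activate CDKs in turn. D-type cyclins with Cdk4 or Cdk6, and then E-type cyclins with Cdk2, phosphorylate Rb and free E2F factors, which switch on genes for DNA replication. Cyclin A with Cdk2 and cyclin B with Cdk1 carry the cell through S phase and mitosis, and the anaphase-promoting complex ends mitosis by marking cyclins for destruction. AT2 cells of the healthy adult lung seldom divide, but they are progenitors that can enter the cycle after injury. In RNA from a whole sorted population, fewer cycling cells and less RNA per cycling cell cannot be told apart.

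Values are the authors' normalized counts divided by the mean column total, so that they read as normalized counts per M (M for mega). Depth was roughly 7.69 to 13.2 M reads a library, and 3 reads corresponded to 0.223 to 0.381 per M. The summed level of 11 AT2 markers was 217149 to 259011 per M in the wild-type and 215607 to 251142 per M in the knockout libraries, so AT2 transcripts were abundant in all 10. Summed levels of 10 macrophage and monocyte markers were 21 to 56.9 per M, and those of the 3 lymphocyte markers found in the table (of 7 listed) were at most 0.830 per M. The targeted gene went against the label in 2 libraries. Rbck1 was at 29.7 per M in the library labelled wild type 2 and at 56.1 to 57.8 per M in the other 4 wild-type libraries. It was at 59.3 per M in the library labelled knockout 1 and at 29.8 to 38.8 per M in the other 4 knockout libraries. The counts and fold changes between genotypes are therefore also given without these 2 libraries, in an 8-library comparison chosen after the Rbck1 values were known, and the plot of fold changes shows both for every member tested. Sex-linked genes differed too. Xist, made from the inactive X chromosome of female cells, was at 39.0, 55.5 and 89.1 per M in the libraries labelled wild type 2 and knockout 2 and 3 and at 1.44 to 3.16 per M in the others. The Y-linked gene Ddx3y was at 0 to 0.103 per M in those 3 libraries and at 27.5 to 33.1 per M in the others. With 8 libraries, all 4 wild-type libraries thus had the male pattern, against 2 of the 4 knockout libraries.

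Levels of the members spanned a wide range. Per kb of exon, so that genes of different length can be compared, the G1 genes led: Ccnd1 stood at 60.6 per M per kb, Cdk4 at 28.1, Ccnd3 at 15.6 and Cdkn1b at 14.5, with the replication clamp Pcna at 15.5 (means of 10 libraries). The order of Ccnd1 and Cdk4 held in every library, whereas the values of Ccnd3, Pcna and Cdkn1b overlapped. Cdc20, an activator of the anaphase-promoting complex, was the highest mitotic gene at 7.15 per M per kb. The lowest members were Cdk6 at 0.160, Ccne1 at 0.184 and Ccnb1 at 0.328 per M per kb.

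**Figure D1:**
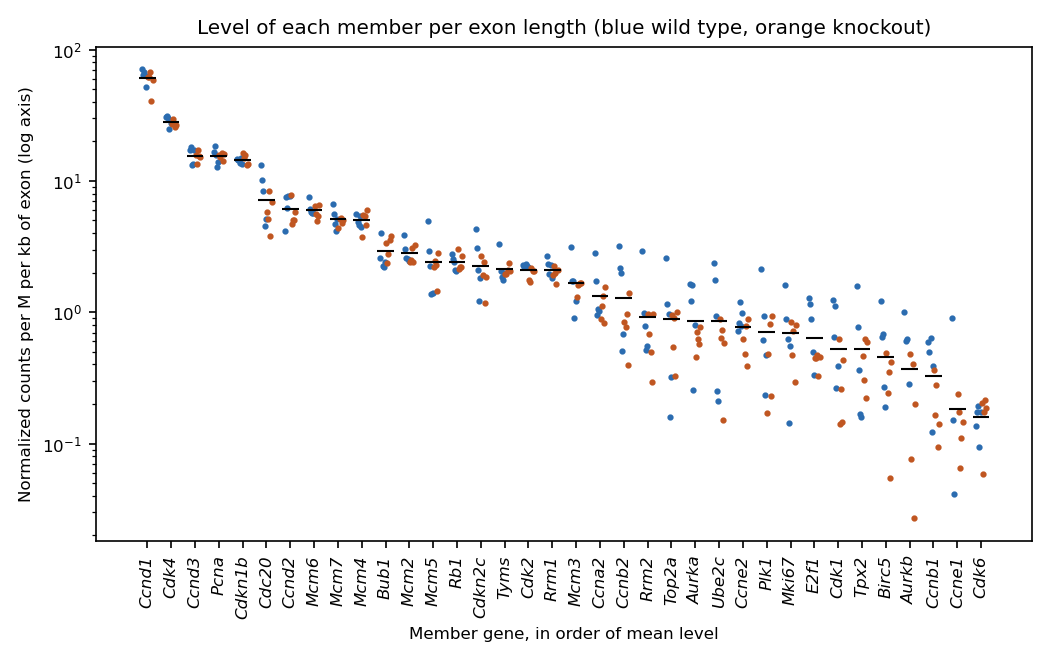
Level of each of the 36 members in normalized counts per M per kb of exon (log axis), with 1 point a library (blue wild type, orange knockout, as labelled) and a black line at the mean of 10 libraries. Points at 0 (Ccne1 in 2 libraries, Aurkb in 1) cannot be drawn on this axis. Ccnd1 leads at 60.6 and Cdk6 is last at 0.160, and the spread between libraries is widest among the low genes.

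The comparison of knockout with wild type asks whether loss of HOIL-1L altered these genes in sorted AT2 cells. With all 10 libraries no member passed the test (limma with Benjamini-Hochberg adjustment over 12946 genes, threshold 0.05), against a background of 0 genes called (0%), and the smallest adjusted p of a member was 0.458, for Cdk1. At an unadjusted p under 0.05 there were 4 of the 35 members tested, all lower in the knockout libraries (Cdk1, E2f1, Ccnb1 and Cdk2), beside 9.48% of all genes (3.28% on the lower side). The log2 fold change was below 0 for 29 of 35 members, or 82.9%, beside 48.7% of all genes, and its median was -0.14 beside 0.01. Without the 2 libraries that went against their labels, 19 of 35 members were below 0, beside 49.9% of all genes, and the median was -0.06 beside 0.00. Again 4 members reached an unadjusted p under 0.05, all lower (Ccnd2, Cdk1, Ccnb1 and Ccne2; limma), beside 13.1% of all genes and 5.25% on the lower side. In that comparison 1 member, Ccnd2, passed and was lower, among 52 genes called (0.402%, and 0.116% on the lower side). Leaving out only the library labelled wild type 2 already brought the count below 0 to 20 and the median to -0.05.

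**Figure D2:**
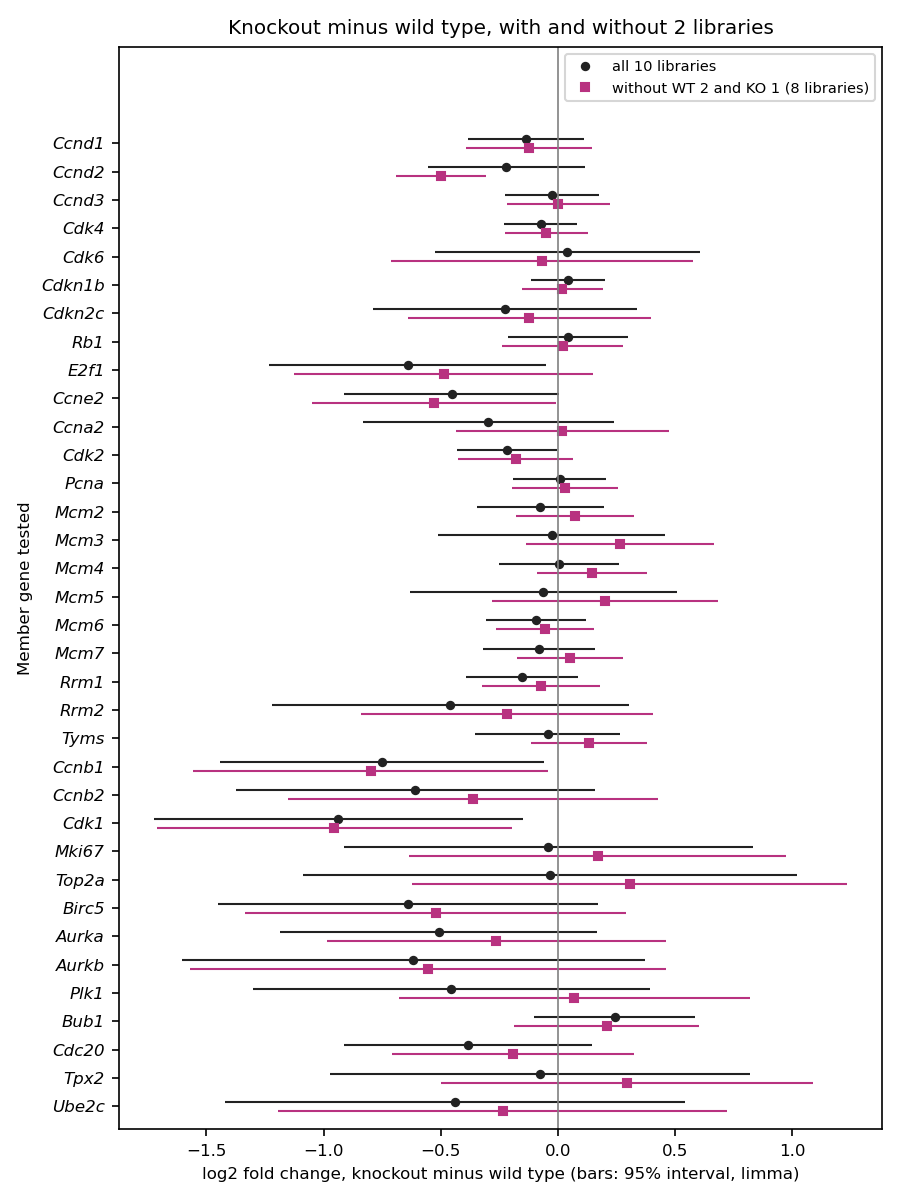
Log2 fold change of each of the 35 members tested, knockout minus wild type, with its 95% interval from limma, for all 10 libraries (black circles) and for 8 libraries without those labelled wild type 2 and knockout 1 (magenta squares). The interval of Ccnd2 lies below 0 only with 8 libraries, and most other points move toward or past 0 when the 2 libraries are left out.

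Among the D-type cyclins, which couple growth signals to the start of the cycle, Ccnd2 was the only one that passed the test, and only in the 8-library comparison. Ccnd2 (chr6:127125162-127152193, minus strand, mm10) stood at 38.9, 71.6, 58.9, 71.8 and 72.2 per M in wild type 2 to 6, as labelled. In knockout 1 to 5 it stood at 72.9, 44.4, 47.6, 47.0 and 54.5 per M. The library labelled wild type 2 was therefore below every knockout library and the one labelled knockout 1 was above every wild-type library, as for Rbck1, while the other 4 of each group did not overlap. With all 10 libraries the log2 fold change was -0.22 ± 0.16 (SE; limma with Benjamini-Hochberg, adjusted p = 0.676). With 8 libraries Ccnd2 fell from 68.6 ± 6.46 to 48.4 ± 4.28 per M (SD, n = 4 each), a log2 fold change of -0.50 ± 0.09 (SE; limma with Benjamini-Hochberg, adjusted p = 0.0209). When single libraries were omitted from these 8, Ccnd2 no longer passed if wild type 5 (adjusted p = 0.0976), knockout 2 (0.0578) or knockout 3 (0.0807) was the one left out, and it still passed in the other 5 omissions (0.00824 to 0.0442, limma with Benjamini-Hochberg). The knockout libraries with the female pattern, 2 and 3, were at 44.4 and 47.6 per M. Those with the male pattern, 4 and 5, were at 47.0 and 54.5 per M. All 4 lay below the 58.9 to 72.2 per M of these wild-type libraries. The library labelled wild type 2, lowest at 38.9 per M, also had the female pattern. That labelled knockout 1, highest at 72.9 per M, had the male pattern. Over all 10 libraries, those with the female pattern were thus at 38.9 to 47.6 per M and the others at 47.0 to 72.9 per M. The part of sex in the Ccnd2 values was not tested. In the second run described below, where all 5 libraries had the male pattern, the log2 fold change was -0.41 ± 0.12 (SE; limma with Benjamini-Hochberg, adjusted p = 0.298). Knockout libraries entirely below wild type were found for 2 members among the 8 libraries, Ccnd2 and Cdk2, beside 2.87% of all genes, and knockout libraries entirely above wild type for none, beside 3.85%.

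**Figure D3:**
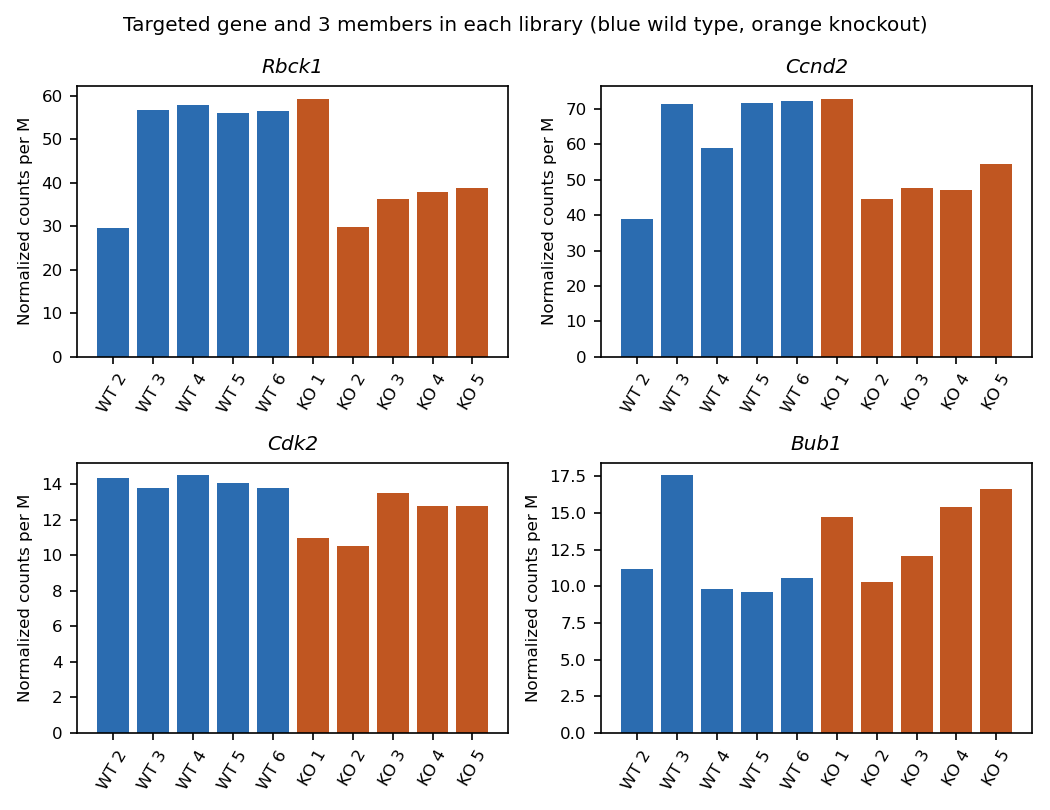
Normalized counts per M of the targeted gene Rbck1 and of Ccnd2, Cdk2 and Bub1 in each library (blue wild type, orange knockout, as labelled), 1 bar a library. Rbck1 and Ccnd2 are both low in the library labelled wild type 2 and high in that labelled knockout 1, at 29.7 and 59.3 per M for Rbck1 and at 38.9 and 72.9 per M for Ccnd2. Every knockout bar of Cdk2 is below every wild-type bar.

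The other D-type cyclins and their kinases showed no such split. Ccnd1, the most abundant cyclin here, ranged from 243 to 333 per M in wild-type and from 190 to 317 per M in knockout libraries, with knockout 4 the lowest. Ccnd3 was at 139 ± 20.1 per M in wild type and 135 ± 12 per M in knockout (SD, n = 5 each). Cdk4, the main partner kinase by level, was at 93.8 ± 8.38 and 89.0 ± 4.88 per M. Its relative Cdk6 was low in every library, between 0.822 per M in knockout 2 and 2.97 per M in knockout 4. The groups overlapped for all 4 of these genes, and their log2 fold changes were -0.14 to 0.04 with all 10 libraries and -0.12 to 0.00 with 8. In the second run described below, Ccnd1 was lower in knockout, as Ccnd2 was. Its log2 fold change there was -0.31 ± 0.14 (SE; limma, unadjusted p = 0.0446, adjusted p = 0.489).

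Of the brakes on G1, Cdkn1b (p27), an inhibitor of CDK2 complexes, varied least: it lay between 59.9 and 73.9 per M over the 10 libraries, 64.8 ± 2.82 in wild type and 67.0 ± 6.39 in knockout. Rb1, the retinoblastoma protein gene, lay between 12.3 and 18.2 per M and its groups overlapped. Cdkn2c (p18), an inhibitor of Cdk4 and Cdk6, spread more widely and was highest at 11.6 per M in the library labelled wild type 2 and lowest at 3.16 per M in knockout 4. E2f1 (chr2:154559407-154569892, minus strand), the activator freed when Rb is phosphorylated, was at 4.06, 3.63, 2.82, 1.57 and 1.04 per M in wild type 2 to 6 and at 1.41, 1.42, 1.49, 1.03 and 1.43 per M in knockout 1 to 5. All wild-type libraries but wild type 6 were above every knockout library, wild type 5 narrowly, and wild type 6 lay within the knockout range. Its log2 fold change was -0.64 ± 0.28 (SE; limma, unadjusted p = 0.0352, adjusted p = 0.503) and -0.49 ± 0.30 without the 2 libraries (adjusted p = 0.501).

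Cdk2 (chr10:128697939-128705031, minus strand), the kinase of the G1/S transition and S phase, was the only member whose groups did not overlap with all 10 libraries, beside 0.633% of all genes that were entirely lower in knockout. No member was entirely higher, beside 0.958% of all genes. It was at 14.3, 13.8, 14.5, 14.1 and 13.8 per M in wild type 2 to 6 and at 11, 10.5, 13.5, 12.8 and 12.8 per M in knockout 1 to 5. The gap between the lowest wild-type and the highest knockout library was small, and the knockout libraries spread more than the wild-type ones (14.1 ± 0.31 against 12.1 ± 1.28 per M, SD, n = 5 each). The log2 fold change was -0.22 ± 0.10 (SE; limma, unadjusted p = 0.0471, adjusted p = 0.522), and -0.18 ± 0.12 with 8 libraries (adjusted p = 0.520). Because Cdk2 was singled out for groups that did not overlap as labelled, its values cannot bear on the labels of wild type 2 and knockout 1.

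Its cyclin partners were low. Ccne1 did not pass the filter: it was listed at 0 in wild type 5 and 6, and lay between 0.110 and 0.639 per M in 7 further libraries. The library labelled wild type 2 held 2.41 per M of it. Ccne2 was at 3.15 ± 0.669 per M in wild type and 2.21 ± 0.727 per M in knockout (SD, n = 5), with overlapping groups, and its log2 fold change was -0.45 ± 0.22 (SE; limma with Benjamini-Hochberg, adjusted p = 0.527), or -0.53 ± 0.25 with 8 libraries (unadjusted p = 0.0477, adjusted p = 0.375). Ccna2, the S phase and G2 cyclin, was at 11.6, 7.04, 3.91, 4.33 and 4.17 per M in wild type 2 to 6 and at 3.60 to 6.32 per M in knockout. Its log2 fold change of -0.30 became 0.02 without the 2 libraries.

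No replication gene passed the test between genotypes. Of the 10 tested, which are the clamp Pcna, the Mcm2 to Mcm7 helicase subunits, the ribonucleotide reductase subunits Rrm1 and Rrm2 and the thymidylate synthase Tyms, 8 were below 0 with all 10 libraries (median -0.07) and 3 with 8 libraries (median 0.06). None reached an unadjusted p under 0.05 in either comparison (limma), beside the 9.48% given above and 13.1% of all genes with 8 libraries. Within the runs of mouse numbers described below, all 10 were below 0 in the first (median -0.33), beside 49.7% of all genes. In the second, 2 were below 0 (median 0.11), beside 48.2%. In the first run 5 reached an unadjusted p under 0.05, all lower (limma), beside 9.39% of all genes and 3.41% on the lower side. Pcna was at 37.2 ± 5.25 per M in wild type and 37.1 ± 1.94 per M in knockout (SD, n = 5), and Mcm4 at 17.9 ± 1.78 and 18.1 ± 3.12 per M. Mcm5 was at 19.8, 11.6, 8.95, 5.51 and 5.64 per M in wild type 2 to 6 and at 5.82 to 11.2 per M in knockout, so 1 library lay far above the rest. Rrm2, the subunit made mainly in S phase, was at 8.11, 2.75, 2.19, 1.44 and 1.53 per M in wild type 2 to 6 and at 2.70, 1.90, 1.38, 0.820 and 2.67 per M in knockout 1 to 5. The library labelled wild type 2 was again the high one, and the remaining 9 libraries overlapped. Its constitutive partner Rrm1 lay between 18.0 and 29.6 per M in all 10 libraries.

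Mitotic genes had the widest spread. Of 13 tested, 12 were below 0 with all 10 libraries (median -0.45) and 8 with 8 libraries (median -0.24), beside 48.7% and 49.9% of all genes. Within the runs described below, all 13 were below 0 in the first (median -1.08) and 8 in the second (median -0.16). In the first run 11 reached an unadjusted p under 0.05, all lower (limma), beside 9.39% of all genes and 3.41% on the lower side. In the second run 1 did, Bub1, which was higher, beside 1302 of 12946 genes (limma). Cdk1 (chr10:69335146-69352938, minus strand), the kinase that starts mitosis, was at 6.08, 3.18, 5.51, 1.31 and 1.92 per M in wild type 2 to 6 and at 3.09, 0.701, 1.28, 0.714 and 2.15 per M in knockout 1 to 5. Its groups overlapped, and the log2 fold change was -0.94 ± 0.37 with all libraries and -0.95 ± 0.36 with 8 (SE; limma with Benjamini-Hochberg, adjusted p = 0.458 and 0.275). Its partner Ccnb1 (chr13:100778650-100786570, minus strand) was at 2.49, 2.11, 2.69, 0.518 and 1.63 per M in wild type 2 to 6 and at 1.54, 0.701, 1.18, 0.396 and 0.591 per M in knockout 1 to 5. All but wild type 5 were above every knockout library, and the log2 fold change was -0.75 ± 0.33 (SE; limma, unadjusted p = 0.0356, adjusted p = 0.503). With 8 libraries it was -0.80 ± 0.36 (adjusted p = 0.355, limma). The lowest of these values correspond to a few reads, where the log2 scale with its added 0.5 per M understates differences.

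The proliferation marker Mki67 showed how far single libraries moved these values. It was at 16.1, 8.96, 6.25, 1.44 and 5.54 per M in wild type 2 to 6 and at 8.50, 4.77, 7.26, 2.95 and 7.97 per M in knockout 1 to 5. The wild-type group held both the highest and the lowest library, and the log2 fold change was -0.04 ± 0.41 with all 10 and 0.17 ± 0.38 with 8 libraries (SE, limma). Top2a, the topoisomerase that untangles chromosomes before division, ran from 1.44 per M in wild type 5 to 23.4 per M in the library labelled wild type 2, a 16.3-fold range. Its log2 fold change was -0.03 ± 0.50 with all 10 and 0.31 ± 0.44 with 8 libraries (SE, limma). Birc5 (survivin), the kinases Aurka, Aurkb and Plk1, the spindle factor Tpx2, the cyclin Ccnb2, Cdc20 and the ubiquitin-conjugating enzyme Ube2c had log2 fold changes of -0.64 to -0.07, none of them called. With 8 libraries the direction of 2 of them turned, with Plk1 at 0.07 and Tpx2 at 0.30, and the others lay between -0.56 and -0.19, again without a call. Aurkb was listed at 0 in wild type 5, where 3 reads would be 0.381 per M.

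Bub1, a kinase of the spindle checkpoint, was the mitotic member that stood apart. It was at 11.2, 17.6, 9.82, 9.59 and 10.6 per M in wild type 2 to 6 and at 14.7, 10.3, 12.1, 15.4 and 16.7 per M in knockout 1 to 5. It was the 1 mitotic member above 0 (log2 fold change 0.24 ± 0.16, SE; limma with Benjamini-Hochberg, adjusted p = 0.653), or 0.21 ± 0.19 with 8 libraries (adjusted p = 0.665), and its groups overlapped through wild type 3 and knockout 2. The library labelled wild type 2 was at 0.930 times the median of the other 9 for Bub1, whereas it was at 2.11 to 4.39 times that median for the 12 other mitotic members.

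That library stood highest for much of the list. It was the highest of 10 for 23 of the 35 members tested (65.7%), beside 14% of all genes, among them 8 of 10 replication and 11 of 13 mitotic members. Its median log2 ratio to each member's own median was 0.70, beside -0.01 over all genes. Wild type 3 followed at 0.30, and knockout 4 and wild type 5 were lowest at -0.35 and -0.29. Knockout 4 was the lowest library for 13 members and wild type 5 for 11, beside 9.83% and 11.4% of all genes. Depth was about 9.38 M reads in the library labelled wild type 2, 7.69 M in wild type 5 and 11.1 M in knockout 4. Relative to the median of the other 9 libraries, the library labelled wild type 2 held 4.39 times as much Plk1, 4.34 times as much Tpx2, 4.27 times as much Rrm2, 3.82 times as much Ccnb2 and 3.74 times as much Ube2c. The G1 and S phase genes were mixed in this respect. The ratio was 2.84 for E2f1, 2.25 for Cdkn2c and 2.67 for Ccna2, between 0.906 and 1.24 for Ccnd1, Ccnd3, Cdk4, Cdkn1b, Rb1, Ccne2 and Cdk2, and 0.660 and 0.775 for Ccnd2 and Cdk6.

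**Figure D4:**
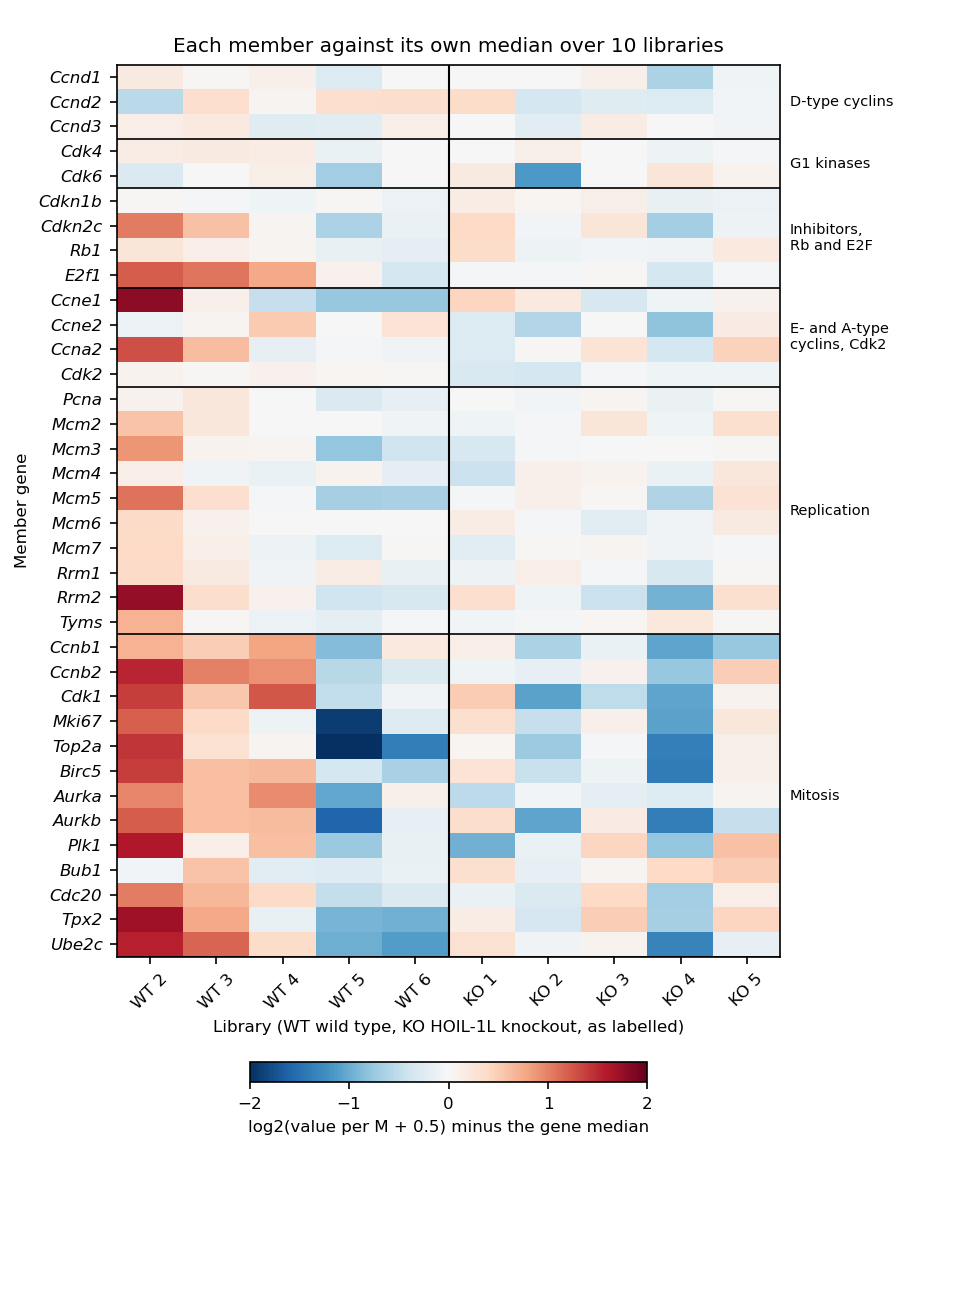
Each of the 36 members (rows, grouped by role) in each of the 10 libraries (columns), as log2(value per M + 0.5) minus the gene's own median, red above and blue below it. The color scale ends at -2 and 2. The column of the library labelled wild type 2 is red through most of the replication and mitosis rows, and those of wild type 5 and knockout 4 are mostly blue there.

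Summed over the 13 mitotic members, levels were 118, 81.3, 66.0, 27.0 and 39.1 per M in wild type 2 to 6 and 57.7, 39.1, 57.7, 33.8 and 61.9 per M in knockout 1 to 5. The knockout range lay inside the wild-type range. Summed over the 10 replication members, levels were 159 to 241 per M in wild type and 160 to 190 per M in knockout. Markers of other cells differed between the same libraries. The macrophage and monocyte sum was 43.3 and 53.4 per M in wild type 2 and 3 and 56.9 and 53.2 per M in knockout 2 and 3, and 21 to 34.8 per M in the remaining 6 libraries. The leukocyte gene Ptprc was at 2.61 and 2.11 per M in wild type 2 and 3 and at 0.109 to 0.877 per M elsewhere. The lymphocyte sum was at 0.830 and 0.608 per M in these 2 libraries and at most 0.121 per M elsewhere. The library labelled wild type 2 also had the highest AT1 marker sum (2403 per M) and the lowest club cell sum (4635 per M). The fibroblast marker sum was 5.62 to 10.6 per M in wild-type and 1.39 to 8.34 per M in knockout libraries, and these ranges overlapped. All 4 fibroblast markers tested were below 0 (median -0.73, and -0.88 with 8 libraries), but none passed in either comparison. Col3a1 was at -0.90 ± 0.28 (SE; limma with Benjamini-Hochberg, adjusted p = 0.359, and 0.2 with 8 libraries). The part of these differences, and of the sex pattern given above, in the members' levels was not tested.

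**Figure D5:**
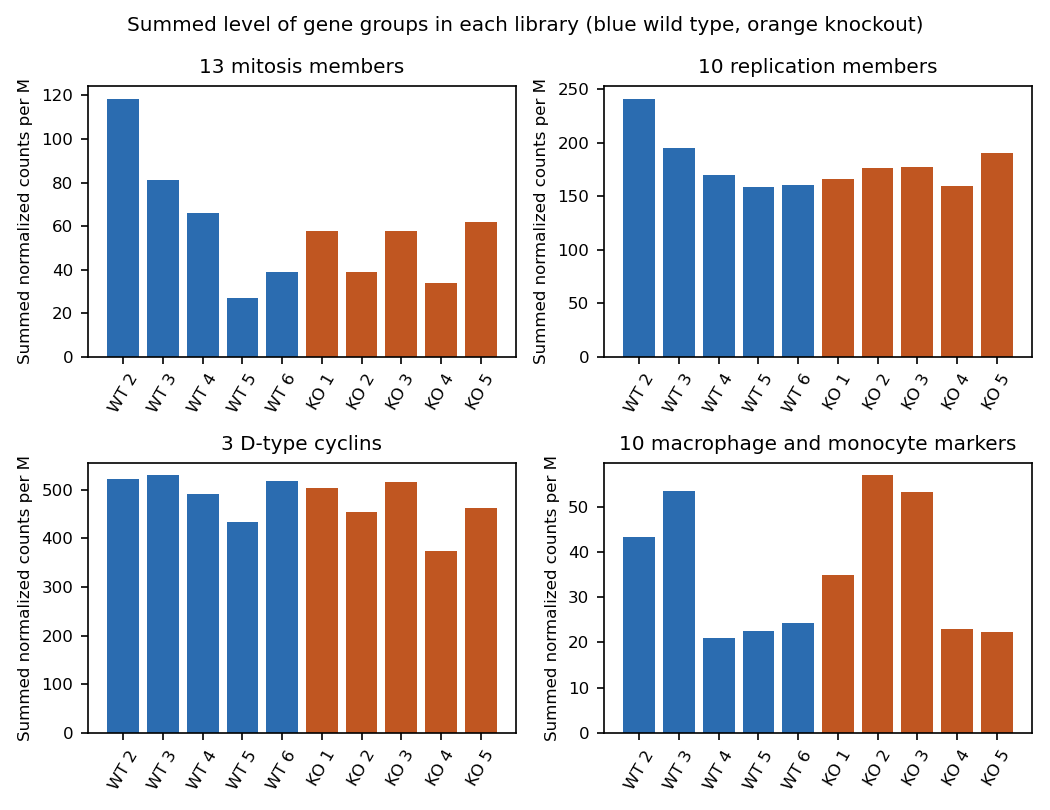
Summed normalized counts per M in each library (blue wild type, orange knockout, as labelled) of the 13 mitotic members, the 10 replication members, the 3 D-type cyclins and 10 macrophage and monocyte markers. The mitotic sum runs from 27.0 to 118 per M within the wild-type group, wider than the knockout range of 33.8 to 61.9. Macrophage sums are highest in wild type 2 and 3 and knockout 2 and 3.

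The promoters of these members are shown because 8 of 10 replication and 11 of 13 mitotic members were highest in 1 library while Bub1 was not. Pcna and Ccnb1 were not highest there either. The summed level in that library was 2.05 times the median of the other 9 for the mitotic and 1.42 times for the replication members. The letters recognized by E2F and by the MuvB complexes of G2/M genes are known for these gene classes. RefSeq windows of 250 bases before to 50 after the start (GRCm38.p6) were found for 28 of the 36 members (31 windows). None was found for Ccnd1, Ccnd2, Ccna2, Ccne2, Rb1, Mcm4, Aurkb and Tpx2. Printed are the 3 replication and the 3 mitotic members with a window whose level in the library labelled wild type 2 was highest relative to the other 9, and Bub1. Both strands were searched. Capitals mark CCAAT, which reads ATTGG on the other strand, the cell cycle homology region or CHR (TTTGAA or TTCGAA, with TTCAAA on the other strand) and the E2F letters TTCCCGC or TTCGCGC or TTGGCGC or TTGCCGC, or their reverse complements. The replication members are Rrm2 (chr12:24708004-24708303, plus strand), Mcm5 (chr8:75109259-75109558, plus strand) and Mcm3 (chr1:20820263-20820562, minus strand).
Rrm2: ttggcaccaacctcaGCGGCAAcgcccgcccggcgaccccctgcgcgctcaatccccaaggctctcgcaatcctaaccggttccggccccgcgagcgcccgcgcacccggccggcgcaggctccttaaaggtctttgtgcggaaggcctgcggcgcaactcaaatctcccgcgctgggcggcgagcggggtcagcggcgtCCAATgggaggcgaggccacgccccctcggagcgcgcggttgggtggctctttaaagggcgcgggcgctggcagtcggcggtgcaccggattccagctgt
Mcm5: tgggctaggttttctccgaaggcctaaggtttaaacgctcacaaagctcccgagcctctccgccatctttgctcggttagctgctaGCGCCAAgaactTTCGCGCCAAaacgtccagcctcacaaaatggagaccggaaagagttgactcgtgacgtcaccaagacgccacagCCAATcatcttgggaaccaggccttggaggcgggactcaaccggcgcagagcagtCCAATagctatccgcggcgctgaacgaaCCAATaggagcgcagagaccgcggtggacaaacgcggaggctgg
Mcm3: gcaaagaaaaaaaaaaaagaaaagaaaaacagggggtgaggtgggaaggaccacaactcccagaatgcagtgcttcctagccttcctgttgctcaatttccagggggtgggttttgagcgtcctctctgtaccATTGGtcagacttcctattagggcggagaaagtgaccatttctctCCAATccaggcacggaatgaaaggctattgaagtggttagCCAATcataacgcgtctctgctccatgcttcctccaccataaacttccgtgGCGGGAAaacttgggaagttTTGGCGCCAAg
The mitotic members are Plk1 (chr7:122159185-122159484, plus strand), Ccnb2 (chr9:70421505-70421804, minus strand), Ube2c (chr2:164769679-164769978, plus strand) and Bub1 (chr2:127831810-127832109, minus strand).
Plk1: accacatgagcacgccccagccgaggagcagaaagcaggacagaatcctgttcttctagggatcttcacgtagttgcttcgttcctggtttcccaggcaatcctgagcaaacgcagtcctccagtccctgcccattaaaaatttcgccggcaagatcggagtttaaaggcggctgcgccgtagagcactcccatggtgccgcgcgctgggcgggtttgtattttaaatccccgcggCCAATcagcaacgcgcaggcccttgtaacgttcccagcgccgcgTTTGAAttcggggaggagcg
Ccnb2: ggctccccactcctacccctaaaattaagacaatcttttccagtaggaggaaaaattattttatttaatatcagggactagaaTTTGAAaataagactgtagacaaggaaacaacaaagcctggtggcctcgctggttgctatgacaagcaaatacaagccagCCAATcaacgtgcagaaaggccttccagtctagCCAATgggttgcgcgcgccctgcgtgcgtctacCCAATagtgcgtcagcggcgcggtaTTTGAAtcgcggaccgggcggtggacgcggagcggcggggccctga
Ube2c: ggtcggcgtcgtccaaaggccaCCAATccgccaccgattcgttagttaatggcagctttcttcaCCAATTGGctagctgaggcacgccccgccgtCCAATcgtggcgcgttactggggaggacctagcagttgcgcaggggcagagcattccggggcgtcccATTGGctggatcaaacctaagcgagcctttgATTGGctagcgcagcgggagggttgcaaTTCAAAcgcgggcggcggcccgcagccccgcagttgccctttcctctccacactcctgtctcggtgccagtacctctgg
Bub1: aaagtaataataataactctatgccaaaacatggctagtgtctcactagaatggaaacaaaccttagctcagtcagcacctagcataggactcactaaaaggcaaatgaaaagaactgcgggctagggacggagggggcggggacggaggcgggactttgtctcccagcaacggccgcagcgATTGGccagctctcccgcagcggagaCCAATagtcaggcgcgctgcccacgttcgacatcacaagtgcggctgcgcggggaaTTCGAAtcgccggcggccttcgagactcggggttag

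In these 7 windows each of the 3 replication members held E2F letters and no CHR, and each of the 4 mitotic members held a CHR and no E2F letters. All 7 held CCAAT, and no E2F match overlapped a CCAAT match. Over all member windows, CHR letters were present in 9 of 11 mitotic and 2 of 10 replication windows, beside 19.2% of all 32851 windows of that length. E2F letters were present in 7 of 10 replication and 3 of 11 mitotic windows, beside 9.57% of all. CCAAT was present in 10 of 11 mitotic and 9 of 10 replication windows, beside 37.4% of all. Bub1 held both CHR and CCAAT, as Plk1, Ccnb2 and Ube2c did, although its level across libraries differed from theirs. The last bases of the printed Mcm5 window were found in 0 GENCODE M21 transcripts of that gene, so its start was not matched there. Those of each other printed window were found in 1 or 2. A match describes the letters of the window and is not a measured binding site.

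The mouse numbers formed 2 series of close values, called the first and second run here although no label names them as batches. Knockout 1 to 3 and wild type 2 and 3 make up the first run. Knockout 4 and 5 and wild type 4 to 6 make up the second, and fold changes were computed within each. In the first run, which includes both libraries that went against their labels, 33 of 35 members were below 0 (median -0.59), beside 49.7% of all genes, and 19 reached an unadjusted p under 0.05, all lower (limma, beside 9.39% of all genes and 3.41% on the lower side), with no member or other gene passing after adjustment (background 0%). Knockout was entirely below wild type for 22 members there, beside 13% of all genes, and entirely above for 1, Cdkn1b, beside 14%. In the second run 18 of 35 were below 0 (median -0.07), beside 48.2% of all genes, and 41 genes passed (0.317%), none of them a member (limma). There, 3 members reached an unadjusted p under 0.05, with 2 lower (Ccnd1 and Ccnd2) and 1 higher (Bub1), beside 1302 of 12946 genes (limma). Knockout was entirely below wild type for Ccnd2, Cdkn1b and Cdk2 there, beside 12.6% of all genes, and entirely above for Tyms and Bub1, beside 14.8%. Bub1 had the smallest p of the members in the second run, with a log2 fold change of 0.66 ± 0.16 (SE; limma with Benjamini-Hochberg, adjusted p = 0.144), while it was -0.19 in the first.

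The difference between the runs was itself tested, with all 10 libraries as labelled. The library labelled wild type 2, highest for 23 of the 35 members, is in the first run, as is that labelled knockout 1. The tests that follow were not repeated without these 2 libraries. The knockout minus wild-type difference was less negative or more positive in the second run than in the first for 30 of 35 members (second minus first, median 0.55 on the log2 scale), so that 5 were below 0 beside 49.2% of all genes, and 8 of them reached an unadjusted p under 0.05 (limma), beside 5.92% of all genes and 2.7% in that direction. No member passed after adjustment (smallest adjusted p = 0.651, limma with Benjamini-Hochberg), beside 0.0154% of all genes. Between the runs as such, 30 of 35 members were lower in the second (median -0.33), beside 51% of all genes, with 15 at an unadjusted p under 0.05 and all of these lower, beside 15.8% of all genes and 7.55% on the lower side (limma). None passed after adjustment, beside 0.626% of all genes. The closest were Cdkn2c, at -0.82 ± 0.19 (adjusted p = 0.0575), and Ube2c, at -1.40 ± 0.33 (adjusted p = 0.0622, SE, limma with Benjamini-Hochberg). All 13 mitotic members were lower in the second run. Of 6 macrophage markers tested, 4 passed and were lower in the second run (limma), namely Chil3, Itgax, Mrc1 and Ear2. All 4 ciliated cell markers were higher in the second run (median 0.55), 2 of which passed, Foxj1 and Tppp3 (limma with Benjamini-Hochberg, adjusted p = 0.0169 and 0.0305). The AT1 markers were mixed. Of 7 tested, 4 were higher at an unadjusted p under 0.05 (limma), beside the 15.8% of all genes given above for either direction. Lower were 2, Ager (-0.19) and Clic5 (-0.06). The summed AT1 level was 1845 to 2403 per M in the first run and 1752 to 2078 per M in the second. The part of these cell types in the members' difference between runs was not tested.

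Genes of the same machinery outside the 36 were examined through 99 further cell cycle genes, of which 87 were tested. None passed with all 10 libraries (smallest adjusted p = 0.359, limma with Benjamini-Hochberg) or with 8 (0.250). Log2 fold changes were below 0 for 56 of 87, beside 48.7% of all genes, and for 48 of 87 with 8 libraries, beside 49.9%. Spindle, kinetochore and cytokinesis genes lay on the same side as the mitotic members, with 18 of 21 below 0 with all libraries and 10 of 21 with 8, and the library labelled wild type 2 was the highest for 19 of 21. It held 4.13 times the median of the other 9 for Racgap1, a regulator of cytokinesis, 3.67 times for the spindle motor Kif11 and 3.51 times for Cenpa, the centromeric histone. Of the 13 subunits and activators of the anaphase-promoting complex, the library was highest for 2 and 7 were below 0. Nuf2, a kinetochore protein, was at 25.0 ± 3.28 per M in wild type and 20.7 ± 1.99 per M in knockout (SD, n = 5; limma, adjusted p = 0.458).

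Upstream of mitosis, 16 of 27 licensing and fork genes were below 0, beside 48.7% of all genes. Rpa2, a single-strand binding protein, had the smallest p of these genes (log2 fold change -0.39 ± 0.12, SE; limma with Benjamini-Hochberg, adjusted p = 0.359, and -0.37 with 8 libraries), followed by Rfc5, a clamp loader subunit, at 25.1 ± 1.95 and 21.2 ± 0.751 per M (SD, n = 5). Pocket proteins, other E2F factors and their DP partners were below 0 for 3 of 9, and DREAM and MuvB genes for 4 of 6. Foxm1, the activator of G2/M genes in the DREAM and MuvB list, was at 2.51 times the median of the other libraries in that labelled wild type 2. All 4 further CDK inhibitors tested were below 0, and 3 of 4 with 8 libraries. Cdkn2b was at 9.01 ± 1.32 and 7.34 ± 1.11 per M (SD, n = 5; limma, adjusted p = 0.549). The p53 target Cdkn1a (p21) was at 31.7 ± 3.08 and 31.9 ± 6.80 per M, with a log2 fold change of -0.01, or 0.12 with 8 libraries. Of the CDK-activating kinase and Cdc25 group 4 of 7 were below 0, and Wee1, the kinase that holds Cdk1 inactive, was at 10.6 ± 2.45 per M in wild type and 13.1 ± 1.53 per M in knockout (SD, n = 5; limma, adjusted p = 0.515, and 0.250 with 8 libraries).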

How the data were processed

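Libraries from RNA of sorted AT2 cells were prepared with the NEBNext Ultra kit and run on an Illumina sequencer, per the labels' protocols. The authors deposited 1 table of normalized counts per gene, treated here as a signal because its values are not whole. Tools listed in the submitters' processing notes are edgeR 3.14.0 and bcl2fastq 2.17, with the build mm10 and no role for any of them. How reads were aligned, assigned to genes and normalized is not given in the sources used here. Whole reads could not be recovered, so no count test was run, and depth was estimated from the lowest cluster of values in each column.

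Each value was divided by 7.14 M, the mean of the column totals. Genes that reached 1 per M in 5 or more of the 10 libraries were tested with limma-trend (limma 3.58.1, R 4.3.3) on log2(value per M + 0.5), knockout minus wild type, two-sided, with Benjamini-Hochberg adjustment over 12946 genes and a threshold of 0.05. The test was checked on simulated data. All fits kept these genes except those with another filter. Symbols, coordinates and exon lengths come from GENCODE M21 (mm10), and promoter windows from RefSeq (GRCm38.p6).

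The rule for named genes was to describe all 36 members by role, and from each further cell cycle list up to 4 genes with the smallest p. Racgap1, Kif11, Cenpa, the sex-linked genes and the single marker genes were named after their values were seen. The members and lists were chosen with earlier results of these data known. Alternatives covered scaling, pseudocount, filter, replicate block, run, sample weights and leaving out each library. Leaving out the libraries labelled wild type 2 and knockout 1 together was added after seeing the data.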

Additional observations from a re-analysis of the deposited data

Results flagged for a closer look

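In each group of 5 libraries, a value was singled out where its gap to the nearest other library, divided by the range of the group, exceeded Dixon's critical value of 0.710. This held in 8 of the 84 groups examined. Chance gives about 1 in 20 for independent groups. These groups share libraries and include sums of the same members, so an excess over chance cannot be read from the count. The library labelled wild type 2 accounted for 4 of the 8, all high: Ccne1 at 2.41 per M (nearest wild-type value 0.405), Mcm6 at 35.2 (28.4), Rrm2 at 8.11 (2.75) and Tyms at 20.3 (12.5). Wild type 3 was high for Bub1, at 17.6 per M beside 11.2. Among the knockout libraries, knockout 2 was low for Cdk6 at 0.822 per M beside 2.42, knockout 4 was low for E2f1 at 1.03 beside 1.41, and the library labelled knockout 1 was low for Mcm3 at 4.89 beside 6.09.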

How the results depend on the processing

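Over all genes, 0 passed with all 10 libraries. The count was 261 with a replicate block, 1 with run as a covariate, 41 in the second run alone, 52 without both libraries that went against their labels (wild type 2 and knockout 1), and 0 to 4 when each library was left out in turn (4 without the library labelled knockout 1). Members passing stayed at 0 except without both of those libraries, where it was 1, and 0 to 1 when each of the remaining 8 was left out. Of members, 29 of 35 were below 0 with all libraries. This became 16 of 21 tested with a filter at 5 per M, 18 of 35 in the second run alone, 19 without both libraries and 20 to 32 when each was left out. The median member log2 fold change was -0.59 in the first run alone and -0.23 to -0.05 when each library was left out, lowest without wild type 5 and nearest 0 without that labelled wild type 2. Other scalings moved the median of all genes by at most 0.0247. Over 22 alternatives, 16 of 35 members kept the sign of their fold change and 19 did not in at least 1. The cause of these shifts was not tested.

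Libraries of the 2 groups share the replicate numbers 2 to 5, but same-numbered libraries did not all deviate together (correlations across genes of 0.314, 0.0265, 0.0986 and 0.0792), so the numbers were not taken as pairs. Not every library correlated best with its own number. With the replicate block 261 genes passed, no member passed, and 32 members were below 0. Replicate number 1 occurs only in knockout and number 6 only in wild type. The fold changes of that fit therefore drew nothing from knockout 1 and wild type 6, while the library labelled wild type 2 was kept.

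Among the members, values at or under the level of 3 reads occurred in Ccne1 (4 libraries), Aurkb (3) and Birc5 (1). Differences among values that low were not detectable at this depth.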
